A study of Homo sapiens with 36 samples.

Results

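The genes described here are the protein-coding zinc finger genes of human chromosome 19 whose symbols start with ZNF or ZFP. GENCODE release 29 lists 254 of them, and 250 were in the table of raw gene counts, among 45478 genes of which 18733 were protein coding. The other 4 (ZNF625-ZNF20, ZNF729, ZNF728 and ZNF816-ZNF321P) were not analysed here. These genes were chosen by family and chromosome with their levels (CPM, on and off) in the cell states below known, so those levels and the differences between cell states are given as a description. Tests are used for differences between antibodies, which the choice did not use.

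RNA was sequenced from 2 established human kidney cancer cell lines, A498 and 786-O, both used as models of clear cell carcinoma, as parental cells and as cells grown to resistance against sunitinib, an inhibitor of receptor tyrosine kinases. Selection ended at 2 µM sunitinib for A498 and at 4 µM for a line that the labels spell differently at that place and that is taken here as 786-O. All 36 libraries came from cells treated for 24 h with atezolizumab, avelumab or durvalumab, antibodies against PD-L1, at 10 mg/mL in the unit the labels give. The 12 groups of 3 libraries form 4 cell states of 9 libraries: A498 parental, A498 labelled resistant, 786-O resistant and 786-O parental, each with the 3 antibodies. Untreated libraries were not analysed here. No label says whether replicate libraries were grown as separate cultures. The p-values therefore reflect the spread between these samples alone, which may be technical.

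Totals ran from 19994882 to 58122896 counts per library, and no library was a copy of another. Each cell state has 1 batch label of its own, so state and batch cannot be told apart, while the antibodies were compared inside 1 batch label. The labelled cell type was checked first. PAX8, a transcription factor that marks renal tubule cells, averaged 224 to 291 CPM (CPM is the read count scaled by the library's total) in the 4 states. Of 9 genes listed to check the kidney label, PAX8 included, 9 averaged at least 1 CPM in A498 parental and 8 in each of the other states. The gene below that level was CA9, which averaged 1.27 CPM in A498 parental and 0.00346 to 0.0198 CPM elsewhere. Its difference is not read as one of tubule identity. HIF1A, a subunit of the hypoxia-inducible factors whose intact form 786-O is known to lack, averaged 294 ± 7.37 CPM (SD, n = 9) in A498 parental and 8.71 ± 0.424 and 9.36 ± 0.571 in 786-O resistant and 786-O parental. It averaged 8.99 CPM in the libraries labelled A498 resistant, from 8.40 to 9.73, so these go against their label. They are called the libraries labelled A498 resistant throughout. Counts of members on and off over all states are also given without them. The test of whether antibody differences depend on cell state was not run without them as a whole. Of 5 leukocyte and 3 endothelial markers, none averaged 1 CPM in any state. Of 4 fibroblast markers, COL1A1 averaged 55.7 CPM in A498 parental and 1.92 to 4.70 in the other states, and LUM averaged 0.0142 CPM there and 4.52 to 16.2 in the others. The 4 summed to between 50.3 and 61.7 CPM in the A498 parental libraries, 19.7 and 22.7 in those labelled A498 resistant, 9.91 and 11.6 in 786-O resistant and 5.64 and 7.80 in 786-O parental. DCN averaged under 0.1 CPM in every state, PDGFRA had 0 reads in 786-O parental, and the part of these genes in the results below was not tested.

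Zinc finger proteins of this type carry tandem C2H2 fingers that read DNA, and most of those encoded on chromosome 19 also carry a KRAB domain. KRAB binds TRIM28, which brings in the histone methyltransferase SETDB1, HP1 proteins and histone deacetylases, and the bound DNA, often a transposable element, is packed into heterochromatin. The genes lie in clusters of tandem duplicates, so that neighbours are often close relatives, and the clusters themselves can be covered by the same heterochromatin through ZNF274, a member that binds the finger-coding ends of other members.

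The members fell into 13 clusters, defined as runs of at least 5 members with gaps of at most 200 kb, which held 227 of them, and 23 lay outside. By a pattern for C2H2 fingers, the proteins held a median of 12 fingers. Because near copies and overlapping genes can share reads, 76 members that overlap another gene by at least 10% of their exonic length or share at least 10% of their 50-base words with other genes are treated as uncertain, and this is said where a level or test of such a gene is given.

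The 250 bases before the transcription start are shown for 7 members from different clusters, with CG pairs in capitals because CG pairs in such windows are where promoter methylation is read. Methylation itself was not measured in the data used here. RefSeq (build GRCh38.p14) gave a window for 218 of the 250 members, and none was matched for ZFP28, ZNF559, ZNF738, ZNF649, ZNF665, ZNF471 or ZNF676. The first 5 sequences belong to genes that were off in A498 parental and on in the other 3 states, as described below. ZNF439 (chr19:11848476-11848725, + strand) and its neighbour ZNF69 (chr19:11887532-11887781, +) come from cluster 3, and ZNF813 (chr19:53467483-53467732, +, uncertain) from cluster 10. ZNF583 (chr19:56403764-56404013, +) comes from cluster 12, and its RefSeq start lies inside the GENCODE gene, which begins at 56397966. ZNF256 (chr19:57947707-57947956, − strand) lies in cluster 13. ZNF264 (chr19:57191250-57191499, +), the first gene of that cluster, was on in all 4 states. ZNF541 (chr19:47573149-47573398, −), known for its part in male meiosis, was off in all 4 states, and its RefSeq start lies upstream of the GENCODE gene, which ends at 47555856.
ZNF439: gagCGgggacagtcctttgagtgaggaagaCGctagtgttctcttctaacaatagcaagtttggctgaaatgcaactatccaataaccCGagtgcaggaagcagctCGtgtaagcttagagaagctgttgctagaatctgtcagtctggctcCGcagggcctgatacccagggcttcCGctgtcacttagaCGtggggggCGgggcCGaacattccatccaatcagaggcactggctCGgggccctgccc
ZNF69: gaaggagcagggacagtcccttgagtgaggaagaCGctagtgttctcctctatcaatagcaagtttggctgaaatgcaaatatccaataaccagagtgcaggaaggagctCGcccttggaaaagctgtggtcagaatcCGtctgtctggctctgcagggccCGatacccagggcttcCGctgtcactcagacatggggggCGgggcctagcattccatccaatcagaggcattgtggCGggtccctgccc
ZNF813: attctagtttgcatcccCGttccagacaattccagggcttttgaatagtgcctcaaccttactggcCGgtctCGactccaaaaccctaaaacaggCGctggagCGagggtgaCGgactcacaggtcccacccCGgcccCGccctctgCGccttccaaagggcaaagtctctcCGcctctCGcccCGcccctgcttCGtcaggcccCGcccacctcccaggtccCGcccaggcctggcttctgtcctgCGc
ZNF583: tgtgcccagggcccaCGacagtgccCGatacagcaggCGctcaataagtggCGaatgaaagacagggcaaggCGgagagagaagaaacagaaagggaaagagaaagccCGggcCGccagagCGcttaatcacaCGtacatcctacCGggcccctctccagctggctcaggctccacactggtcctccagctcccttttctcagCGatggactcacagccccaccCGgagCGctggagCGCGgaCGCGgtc
ZNF256: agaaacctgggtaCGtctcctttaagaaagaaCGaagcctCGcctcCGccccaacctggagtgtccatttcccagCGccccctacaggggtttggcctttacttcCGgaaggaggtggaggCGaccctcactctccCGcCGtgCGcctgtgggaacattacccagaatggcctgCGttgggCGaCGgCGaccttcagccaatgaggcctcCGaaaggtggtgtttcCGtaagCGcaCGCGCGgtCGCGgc
ZNF264: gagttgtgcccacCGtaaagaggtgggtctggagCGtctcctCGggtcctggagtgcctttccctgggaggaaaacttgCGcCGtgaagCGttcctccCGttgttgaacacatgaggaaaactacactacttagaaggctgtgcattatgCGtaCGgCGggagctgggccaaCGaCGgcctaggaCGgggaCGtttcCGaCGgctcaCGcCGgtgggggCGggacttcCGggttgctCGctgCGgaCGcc
ZNF541: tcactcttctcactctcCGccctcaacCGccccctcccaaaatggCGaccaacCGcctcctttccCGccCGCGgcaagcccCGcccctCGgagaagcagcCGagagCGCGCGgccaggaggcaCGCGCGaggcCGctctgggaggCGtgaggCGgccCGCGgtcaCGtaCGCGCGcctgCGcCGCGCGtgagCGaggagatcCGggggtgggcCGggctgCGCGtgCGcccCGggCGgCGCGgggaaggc

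These windows held 10 CG pairs for ZNF439, 7 for ZNF69, 16 for ZNF813, 17 for ZNF583, 22 for ZNF256, 23 for ZNF264 and 39 for ZNF541. The motif searched was CG, which reads the same on both strands. At least 1 CG pair was present in 100% of the 218 member windows and in 97.5% of 14280 windows of all protein-coding genes, and at least 10 in 85.3% and 71.5%. The median was 15 CG pairs over the 35 matched genes that were on in 786-O parental and off in A498 parental, 17 over 123 genes on in all states, 14 over 9 genes off in all states, and 18 over all protein-coding genes. The windows of ZNF541, off everywhere, and ZNF264, on everywhere, held more CG pairs than those of the 5 genes that differed between the lines. The count of CG pairs in a window is a description of the sequence and says nothing of whether a factor or methyl group was there.

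Each member was called on where its mean over the 9 libraries of a state was at least 1 CPM, off where it was under 0.1 CPM, and between otherwise. In A498 parental 144 of the 250 members were on, 31 between and 75 off. In 786-O parental 204 were on, 21 between and 25 off, and in 786-O resistant 206, 24 and 20. The libraries labelled A498 resistant had 208 on, 24 between and 18 off, which lies with the 786-O states and apart from the state named as their parent. The count held in single libraries: 144 to 147 members were on in each A498 parental library, and 201 to 212 in each library of the other states. The median member stood at 1.73 CPM in A498 parental and 4.26 in 786-O parental, against 4.71 in 786-O resistant and 5.38 in those labelled A498 resistant. In bulk RNA, fewer cells that express a gene and less RNA per cell cannot be told apart.

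**Figure D1:**
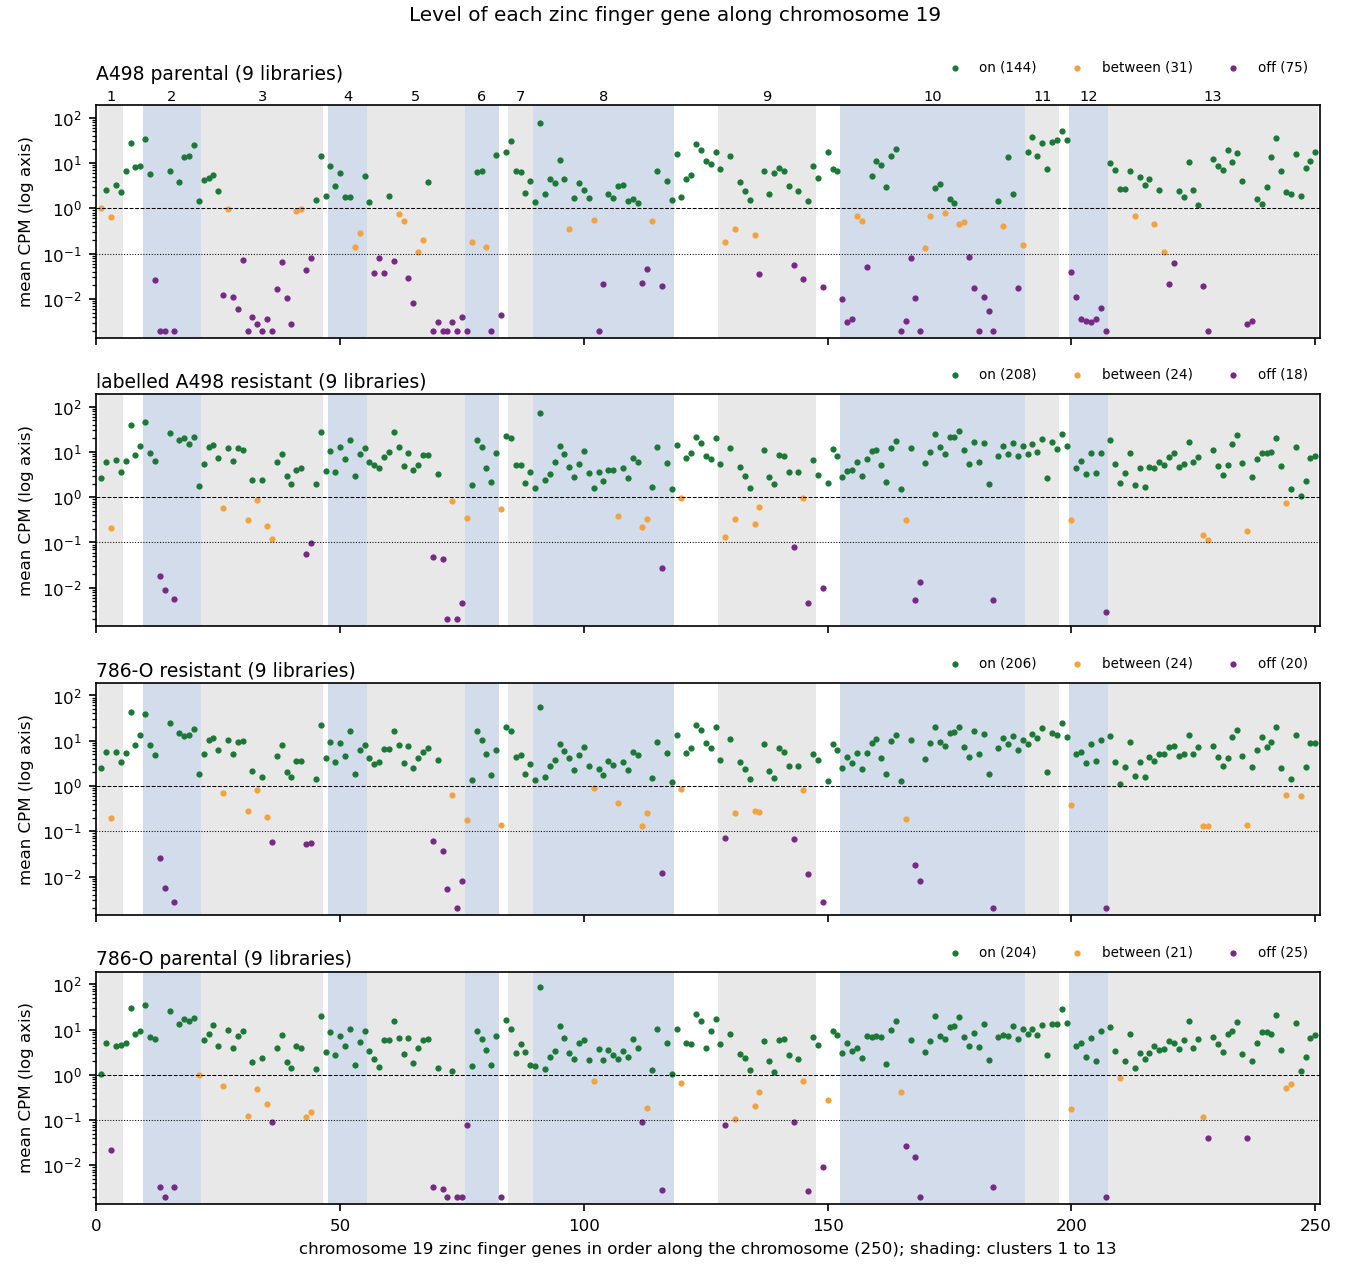
Mean CPM (log axis) of each of the 250 members in order along chromosome 19, 1 panel per cell state of 9 libraries, coloured by on, between and off, with the 13 clusters shaded and the limits of 1 and 0.1 CPM as lines. The A498 parental panel has 75 members off, many in blocks of neighbours, against 18 to 25 in the other panels.

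The same rule gave another picture for other genes. Of 283 ZNF and ZFP genes on other chromosomes, 25 were off in A498 parental, against 39 in 786-O parental, 38 in 786-O resistant and 38 in the libraries labelled A498 resistant. Of the 42 other protein-coding genes that lie between the ends of the clusters, 22 were off in A498 parental, against 21, 20 and 18 in the same order. Over all 18733 protein-coding genes the shares off were 23.9% in A498 parental and then 28.8%, 25.2% and 24.8%. The zinc finger genes on other chromosomes thus had fewer genes off in A498 parental than in the other states, and those on chromosome 19 had more.

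The members nearest the limits show how sharp the calls are. In A498 parental, ZNF551 at 1.18 CPM was the lowest member on, ZNF554 at 0.998 the highest just under that limit, ZNF429 at 0.107 the lowest between and ZNF816 (uncertain) at 0.0864 the highest off. In 786-O parental these were ZNF573 (uncertain) at 1.03, ZNF846 at 0.973, ZNF221 at 0.107 and ZNF233 at 0.0920 CPM. In 786-O resistant they were ZNF460 (uncertain) at 1.09, ZNF345 at 0.922, ZNF671 at 0.130 and ZNF404 (uncertain) at 0.0694, and in the libraries labelled A498 resistant ZNF132 at 1.07, ZNF285 at 0.957, ZNF671 at 0.115 and ZNF564 (uncertain) at 0.0968. CPM is not corrected for gene length. Per kilobase of exon, with the same limits, 69 members were on in A498 parental and 101 in 786-O parental.

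Between the parental lines, 41 of the 250 members (16.4%) were on in 786-O parental and off in A498 parental, against 0.705% of all protein-coding genes. With the same limits per kilobase of exon the count was 18 in place of 41. The pattern was met by 0 of the 283 zinc finger genes on other chromosomes and by 0 of the 42 other genes between the cluster ends. Of the 42, 14 were on in 786-O parental and 17 were off in all 4 states, so at most 14 could meet it. Differences that did not cross both limits are not counted here. The reverse, on in A498 parental and off in 786-O parental, was met by 1 member, ZNF229, against 1.9% of protein-coding genes and 8 of the 283 zinc finger genes elsewhere. The choice of these genes used these levels, so the counts stand as a description. All 41 lay in clusters, 30 stood next to another of the 41 in the order of members, and 7 were uncertain. They had a median of 4.21 CPM in 786-O parental, from 1.22 to 15.4, and of 0.0103 CPM in A498 parental, where the highest reached 0.0864. The 9 libraries of the lines did not overlap for any of the 41. The limits that picked the 41 made this all but certain, so it adds no support.

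Together the 41 genes summed to 195 ± 6.40 CPM in 786-O parental and 226 ± 9.80 in 786-O resistant, and to 0.906 ± 0.189 CPM in A498 parental (SD, n = 9 each). The libraries labelled A498 resistant stood at 270.3 ± 11.1 CPM. Over the 9 A498 parental libraries pooled, 4 of the 41 genes had 0 reads and 19 had 1 to 3. All 250 members together took 0.131% of the counts in A498 parental and 0.148% in 786-O parental. The 41 genes took 9.06e-05% in A498 parental and 0.0195% in 786-O parental, a small part of the members' counts in either line.

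Of the 41, 40 were also on in both the 786-O resistant libraries and those labelled A498 resistant. The exception was ZNF492 (uncertain), at 1.22 CPM in 786-O parental, 0.638 in 786-O resistant and 0.831 in the libraries labelled A498 resistant. Comparing A498 parental with the libraries labelled A498 resistant, 41 members were off in the first and on in the second, against 0.95% of protein-coding genes, and 1 was the other way, ZNF229 again, against 1.14%. ZNF610 took the place of ZNF492 there, with 0 reads in A498 parental, 0.415 CPM in 786-O parental and 1.55 in the libraries labelled A498 resistant. Between 786-O resistant and 786-O parental no member went from on to off (0.0587% of protein-coding genes) or from off to on (0.358%). The libraries labelled A498 resistant and 786-O resistant likewise had no member on in one and off in the other, against 0.00534% and 0.0107% of protein-coding genes.

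Over all 4 states, 43 members were on in at least 1 and off in at least 1, against 3.45% of protein-coding genes. Without the libraries labelled A498 resistant this number was again 43, against 3.19%. Across the 250 members the mean levels, as log2 of CPM plus 0.1, gave r = 0.61 between the parental lines and 0.979 between 786-O resistant and 786-O parental. For the libraries labelled A498 resistant r was 0.59 with A498 parental and 0.993 with 786-O resistant. These correlations run over genes that share libraries and depth, and the genes are not independent replicates.

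**Figure D2:**
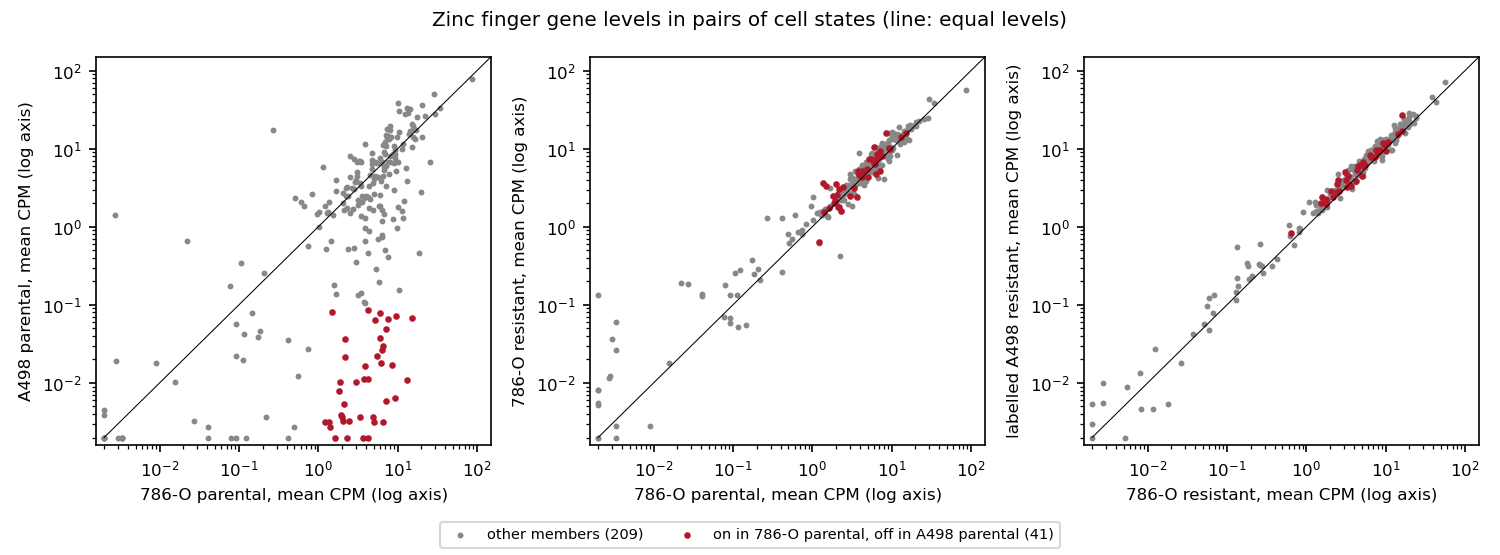
Mean CPM (log axes) of the 250 members in pairs of cell states, with the 41 genes that were on in 786-O parental and off in A498 parental in red and a line at equal levels. The 41 genes sit under 0.1 CPM wherever A498 parental is an axis, and lie along the line between the other states.

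The levels of the 41 genes were read in order of level. ZNF714 (ENSG00000160352.16), in cluster 5, was the highest of them. Its 786-O parental libraries ran from 13.96 through a median of 15.5 to 16.2 CPM, and its A498 parental libraries from 0 through 0.0570 to 0.196, which was 20 reads over the 9 libraries. It averaged 16.2 ± 0.763 CPM in 786-O resistant and 27.3 ± 1.42 in the libraries labelled A498 resistant. The level in 786-O parental was 235-fold that in A498 parental, with a 95% counting interval of 152 to 385. ZNF347 ran from 12.2 through 13.3 to 15.2 CPM in 786-O parental and had 4 reads in A498 parental, a ratio of 1009 with an interval of 394 to 3706. These intervals cover counting error only, since reads were counted without molecular identifiers.

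ZNF160, which lies close by, ran from 7.95 through 8.46 to 9.34 CPM in 786-O parental and had 5 reads in A498 parental, a ratio of 526 (225 to 1621). Between them lies ZNF415, with 3.46, 4.26 and 4.85 CPM as lowest, median and highest in 786-O parental. ZNF415 had 0 reads in all 9 A498 parental libraries, which makes it at least 424-fold higher in 786-O parental, counted against 3 reads over the group. ZNF160 stood higher in 786-O resistant, at 16.1 ± 1.24 CPM, than in 786-O parental at 8.60 ± 0.511. In these 3 genes the state named A498 parental held 9 reads in all, and every other state was on.

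In cluster 3, ZNF69 ran from 6.75 through 7.04 to 8.03 CPM in 786-O parental and had 2 reads in A498 parental, a ratio of 1087 (301 to 8979). Its next neighbour ZNF700 (uncertain) averaged 9.46 ± 0.751 CPM in 786-O parental and had 23 reads in A498 parental, and ZNF439, on its other side, averaged 3.82 ± 0.240 CPM against 3 reads. ZNF44, farther along the same cluster, averaged 7.63 ± 0.629 CPM against 21 reads. The windows printed above for ZNF439 and ZNF69, 2 genes next to each other, held 10 and 7 CG pairs.

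In cluster 12, ZNF71 ran from 8.71 through 9.37 to 10.1 CPM in 786-O parental against 2 reads in A498 parental, a ratio of 1434 (397 to 11845). ZFP28 ran from 4.84 through 6.84 to 7.45 CPM against 1 read, a ratio of 2002 (359 to 79109). The other highest genes of the 41 were ZNF614 at 7.13 ± 0.407 CPM (16 reads in A498 parental), ZNF738 at 6.61 ± 0.542 (8 reads), ZNF559 at 6.28 ± 0.569 (10 reads, uncertain) and ZNF813 at 6.23 ± 0.314 (5 reads, uncertain). ZNF844, ZNF726 (uncertain) and ZNF829 had 0 reads in A498 parental and averaged 2.33, 1.63 and 3.66 CPM in 786-O parental, at least 236-fold, 166-fold and 374-fold higher. ZNF229 had the opposite pattern. It ran from 1.11 through 1.47 to 1.69 CPM in A498 parental, 431 reads in all, and had 1 read in 786-O parental, 4 in 786-O resistant and 1 in the libraries labelled A498 resistant.

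**Figure D3:**
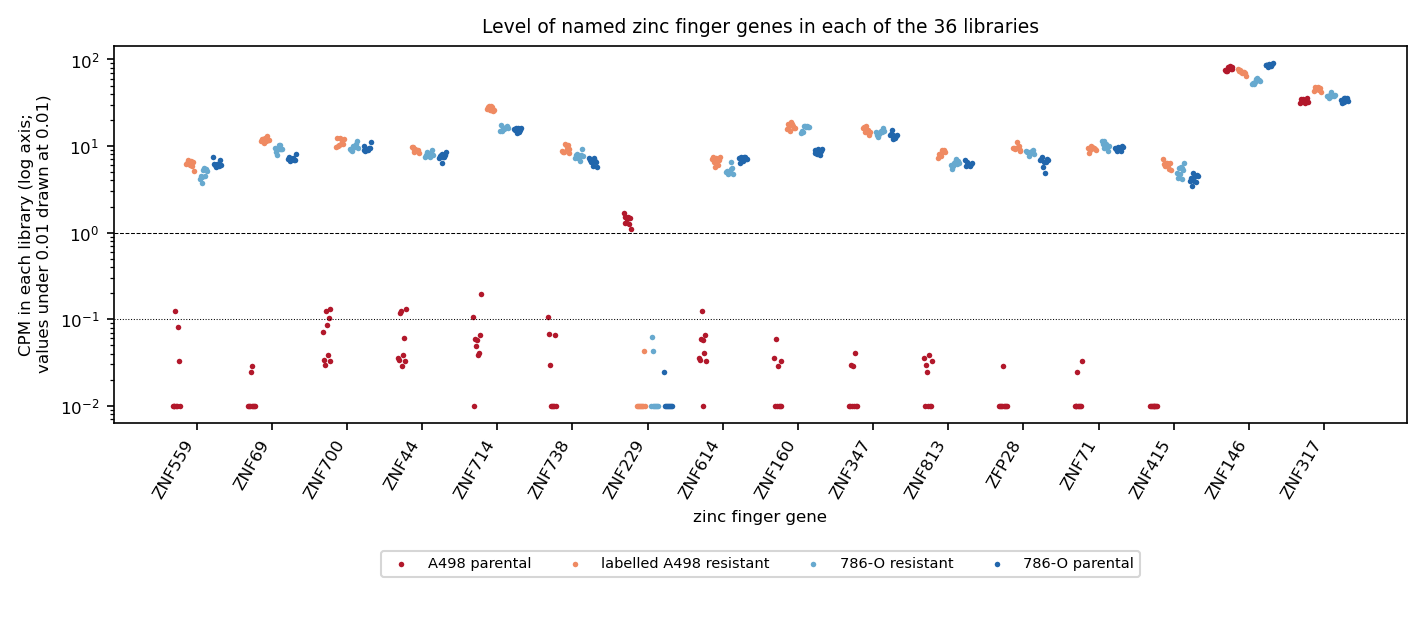
CPM (log axis, values under 0.01 drawn at 0.01) in each of the 36 libraries for the named genes, coloured by cell state, with lines at 1 and 0.1 CPM. For the genes of the 41 the A498 parental libraries lie low and the other 27 libraries high, and ZNF229 shows the opposite.

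Position along the chromosome separated the clusters. Cluster 12, from ZNF582 to ZNF835 (chr19:56375846-56671783), had all 8 members off in A498 parental, with 21 reads in 9 libraries, against 10493 reads in 786-O parental. Its summed level was 0.0699 CPM in A498 parental, 29.8 in 786-O parental, 36.5 in 786-O resistant and 36.5 in the libraries labelled A498 resistant. The 6 neighbours ZNF583, ZNF667, ZNF471, ZFP28, ZNF470 and ZNF71, a run of 228.516 kb, were all among the 41, with 9 reads in A498 parental. The end members behaved otherwise: ZNF582, known as a gene whose promoter is methylated in cervical neoplasia, was at 0.0386 CPM in A498 parental and between 0.172 and 0.374 CPM in the other states, and ZNF835 had 1 read in all 36 libraries.

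Cluster 3, from ZNF653 to ZNF791 (chr19:11483427-12640098), had 16 of 25 members off in A498 parental against 1 in 786-O parental. Its 13 neighbours from ZNF439 to ZNF442, a stretch of 517.18 kb, were all off in A498 parental, with 61 reads in the 9 libraries, and 9 of them were on in 786-O parental, with 14154 reads over the stretch. On both sides of the stretch members were on in A498 parental, among them ZNF653 (uncertain), ZNF627, ZNF823 and ZNF441 before it and ZNF490 (uncertain) and ZNF791 at the end. Cluster 5, from ZNF737 to ZNF723 (chr19:20535825-22858667), had 13 of 20 off in A498 parental and 5 of 20 in 786-O parental, and 8 of the 41. Its last 7 members, from ZNF208 to ZNF723, had 3 reads in A498 parental, and 2 of them were on in 786-O parental.

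Cluster 10, from ZNF577 to ZNF331 (chr19:51804816-53580269), was mixed at a finer scale. It had 13 members on and 16 off in A498 parental, 33 and 4 in 786-O parental, and 11 of the 41. The run ZNF816 (uncertain), ZNF160, ZNF415, ZNF347 and ZNF665 over 244.008 kb had 37 reads in A498 parental and 11421 in 786-O parental. The 6 neighbours from ZNF432 to ZNF480 summed to 63.3 CPM in A498 parental and 47.6 in 786-O parental, all on in both. ZNF331, an imprinted gene at the end of the cluster, was between the limits in A498 parental at 0.155 CPM and averaged 10.3 ± 1.57 in 786-O parental.

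Other clusters stood level between the lines or leaned the other way. Cluster 11, from ZNF628 to ZNF581 (chr19:55476332-55645622), had all 7 members on in all states, and its summed level was 167 CPM in A498 parental, 67.6 in 786-O parental, 82.9 in 786-O resistant and 83.4 in the libraries labelled A498 resistant. In it 6 of 7 members were over 2-fold higher in A498 parental than in 786-O parental. Cluster 7, from ZNF302 to ZNF792 (chr19:34677639-34964049), likewise had all 5 on in all states, with 49.4 CPM in A498 parental and 23.2 in 786-O parental. Cluster 9, from ZNF283 to ZNF180 (chr19:43827292-44500524), had 3 of 20 members off in each parental line and none of the 41. In cluster 12, the next cluster along the chromosome from cluster 11, 7 of 8 members were over 2-fold lower in A498 parental.

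The remaining clusters held fewer of the 41. Cluster 8, from ZNF565 to ZNF573 (29 members), held 2 of them and had 5 off in A498 parental, and the last, from ZNF264 to ZNF446 (43 members), held 3 and had 6 off. Clusters 2 (ZNF317 to ZNF846, 12 members) and 6 (ZNF730 to ZNF254, 7 members) held 1 each. Clusters 1 (ZNF554 to ZNF77, 5 members) and 4 (ZNF101 to ZNF486, 8 members) held none and had no member off in A498 parental. Of the 23 members outside clusters, 2 were off in A498 parental, 21 were on, and none was among the 41.

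**Figure D4:**
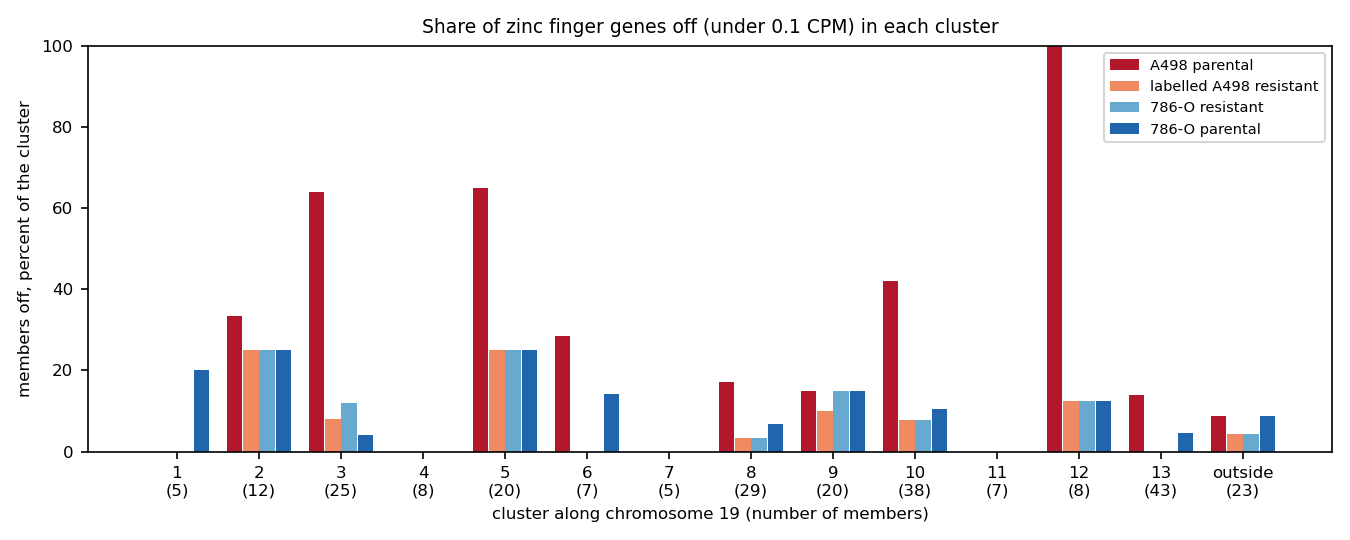
Share of members off (under 0.1 CPM, percent of the cluster's members) in each of the 13 clusters and outside them, 1 bar per cell state. Cluster 12 reaches 100 percent in A498 parental, and clusters 3, 5 and 10 also have far taller bars for A498 parental than for the other states.

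Members that did not switch made up the larger part. In all 4 states 135 of 250 were on, against 59.5% of protein-coding genes. By mean CPM over the states the leading ones were ZNF146, ZNF317, ZNF358, ZNF787 and ZNF544. ZNF146 (uncertain), a protein made almost only of fingers, averaged 78.2 CPM in A498 parental and 86.4 in 786-O parental. ZNF317 averaged 33.2 and 34.2, ZNF358 (uncertain) 27.6 and 30.0, ZNF787 50.7 and 29.1 and ZNF544 (uncertain) 36.6 and 20.5 CPM, in the same order. Compared per kilobase of exon, the 5 highest were ZNF146 at 17.6 CPM per kb, ZNF358 at 17.1, ZNF428 (uncertain) at 10.5, ZNF581 (uncertain) at 10.2 and ZNF787 at 8.77, means of the 4 states. ZFP36, which is no C2H2 protein but tristetraprolin, a CCCH finger protein that speeds the decay of cytokine mRNAs, averaged 16.2 CPM in A498 parental and 10.4 in 786-O parental.

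ZNF91 and ZNF93, which are known to repress SVA and LINE-1 retrotransposons, were on in all states. ZNF91 averaged 6.52 ± 0.643 CPM in A498 parental and 9.14 ± 0.855 in 786-O parental. ZNF93 averaged 1.77 ± 0.375 CPM in A498 parental and 10.2 ± 1.27 in 786-O parental. The libraries labelled A498 resistant stood at 18.01 and 18.5 CPM for the 2 genes and 786-O resistant at 16.1 and 16.5.

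Off in all 4 states were 15 members, against 19.9% of protein-coding genes: ZNF559-ZNF177, ZNF177, ZNF560, ZNF208, ZNF676, ZNF98, ZNF99, ZNF723, ZNF781, ZNF233, ZNF541, ZNF534, ZNF578, ZNF677 and ZNF835. Among them ZNF559-ZNF177, ZNF177, ZNF208, ZNF98 and ZNF578 are uncertain. Of the members off in all 4 states, 5 lie side by side or nearly so in cluster 5 (ZNF208, ZNF676, ZNF98, ZNF99 and ZNF723). ZNF208 (uncertain) had 0 reads in A498 parental, 1 in 786-O parental and 22 in 786-O resistant, and ZNF541 had 6, 4 and 1. Without the libraries labelled A498 resistant, 16 members were off in the 3 other states, against 20.5%, and 135 were on, against 59.6%. A further 26 members, such as ZNF331, ZNF429 and ZNF808 (uncertain), were between the limits in A498 parental and on in the other states, and 9, such as ZNF582 and ZNF285, were off there and between in the others.

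The tests of cell states used the same levels as the choice of genes, so their counts are printed and nothing is read from them. In 786-O resistant minus 786-O parental, edgeR's quasi-likelihood test called 146 of the 222 members tested at an adjusted p under 0.05, 83 higher and 63 lower, where it called 83.8% of all genes tested, 43.6% higher and 40.2% lower. Without TMM factors the split was 115 higher and 49 lower, with the median of all genes at 0.14 log2 against 0.03 with them. At a change of at least 2-fold 13 members were called, against 20.2% of genes. Between A498 parental and 786-O parental, 203 of 220 were called, against 87.2% of genes, of which 70 were higher in A498 parental, where 44.3% of genes were higher and 42.9% lower, and 118 at 2-fold or more, against 31.5%. The libraries labelled A498 resistant minus A498 parental gave 209 of 224, against 88.2%, with 153 higher, where 44.2% of genes were higher and 44% lower, and 127 at 2-fold or more, against 31.8%. Against 786-O resistant those libraries gave 158 of 224, against 69%, with 142 higher, where 33.8% of genes were higher and 35.2% lower, and 2 at 2-fold or more, against 5.27%. Comparisons that share a cell state share its libraries.

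Differences between antibodies inside a cell state were small and few. Over the 12 pairs of antibodies, 165 to 222 members per state passed the filter on low counts. Of 2466 tests of a member in a pair, 10 were called by edgeR's quasi-likelihood test with Benjamini-Hochberg adjustment over all genes, and 9 by DESeq2. By pair, edgeR called from 0% to 2.78% of the members tested, against 0% to 4.34% of all genes tested. The 41 genes were tested in 3 states, since none passed the filter in A498 parental. None of their 369 tests was called by edgeR or DESeq2, 32 had an unadjusted p under 0.05 in edgeR, and the lowest adjusted p was 0.0653. By pair, 1 to 6 of the 41 had such an unadjusted p. Over all genes tested in these pairs the counts ran from 619 of 17510 to 3279 of 17577. Counts of an antibody pair were simulated from the A498 parental libraries, with changed genes drawn from all genes tested there. In them a change of 1.5-fold was recovered by this test for 68 of 100 changed genes, and a change of 3-fold for 94. There were 14 false calls among 18186 genes. Since none of the 41 was tested in that state, these rates do not say how well changes in the 41 would be recovered.

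In 786-O parental, 6 of 216 members were called between avelumab and atezolizumab, against 4.34% of all genes tested. Of the 6, 3 were higher under avelumab, as were 2.71% of genes, and 3 lower, as were 1.63%. ZNF580 (uncertain), a short protein with 3 fingers in cluster 11, measured 16.1, 15.2 and 14.3 CPM under avelumab and 11.2, 12.3 and 12.1 under atezolizumab. The libraries did not overlap, and the log2 difference was 0.35 ± 0.065 (SE; adjusted p = 0.00282, edgeR). ZNF628, the first gene of the same cluster, measured 9.30, 9.91 and 8.83 CPM against 6.60, 7.67 and 7.37, a log2 difference of 0.37 ± 0.080 (adjusted p = 0.00745). ZNF653 (uncertain), which opens cluster 3, measured 6.77, 6.19 and 6.84 CPM against 5.13, 5.15 and 4.98, a log2 difference of 0.36 ± 0.094 (adjusted p = 0.0304). In each of these 3 genes every avelumab library lay above every atezolizumab library. Picking genes by a test on the same libraries makes such separation likely, here and below, so it adds no support. The share of all genes so separated is not given.

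The 3 lower genes differed by similar amounts. ZNF441, on in all states and in the same cluster as ZNF653, measured 3.43, 4.06 and 3.25 CPM under avelumab and 5.32, 4.86 and 4.82 under atezolizumab, a log2 difference of -0.47 ± 0.11 (adjusted p = 0.00997). ZNF93 measured 9.24, 9.14 and 9.40 CPM against 12.2, 10.7 and 12.02, a log2 difference of -0.35 ± 0.076 (adjusted p = 0.00874). ZNF562 (uncertain) measured 15.7, 17.1 and 16.4 CPM against 19.1, 17.95 and 18.9, a log2 difference of -0.19 ± 0.055 (adjusted p = 0.0441). The groups again did not overlap for these genes, which likewise adds no support. Over all alternatives ZNF580 kept an adjusted p of at most 0.0230, left-out libraries included, and the other 5 missed the threshold in some of them. ZNF628 missed it without atezolizumab replicate 1 (adjusted p = 0.0629) or avelumab replicate 2 (0.0774), with a range of 0.000724 to 0.0774 over its alternatives. ZNF93 missed it without avelumab replicate 2 (0.0652, range 0.000478 to 0.0652), and ZNF441 without atezolizumab replicate 1 (0.0541) or avelumab replicate 3 (0.0588, range 0.00152 to 0.0588). ZNF653 and ZNF562 missed it without any 1 of the 6 libraries compared and in DESeq2 (0.0593 and 0.0867), and ZNF562 also without durvalumab replicate 2 (0.0638), with ranges of 0.0122 to 0.105 and 0.0396 to 0.148. The count of 6 fell to 3 without atezolizumab replicate 1, avelumab replicate 2 or avelumab replicate 3.

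Between durvalumab and atezolizumab in 786-O parental, 1 of 216 members was called, against 1.82% of genes. It was ZNF331, with 10.6, 11.7 and 12.9 CPM under durvalumab and 10.6, 7.76 and 8.27 under atezolizumab, a log2 difference of 0.37 ± 0.092 (adjusted p = 0.0425). Its nearest libraries were 10.64 and 10.62 CPM, so the groups came close without crossing. It missed the threshold without atezolizumab replicate 2 or 3 (0.156 and 0.182), avelumab replicate 1, 2 or 3 (0.0662, 0.0615 and 0.0673) or durvalumab replicate 2 or 3 (0.181 and 0.129), with a range of 0.000311 to 0.182. Without durvalumab replicate 1 the count was 6. Durvalumab against avelumab gave 0 of 216 in edgeR and DESeq2, against 0% of genes, and 1 was called without durvalumab replicate 1. In edgeR 17 members had an unadjusted p under 0.05, as did 1899 of 17577 genes. The lowest p there was that of ZNF628, at 7.64, 7.75 and 7.24 CPM under durvalumab (adjusted p = 0.167).

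In 786-O resistant, 1 of 222 members was called between avelumab and atezolizumab, against 1.21% of genes. It was ZNF83, with 22.1, 20.6 and 20.5 CPM under avelumab and 15.6, 18.4 and 16.2 under atezolizumab, a log2 difference of 0.32 ± 0.073 (adjusted p = 0.0347). It missed the threshold without atezolizumab replicate 1 or 3 (0.166 and 0.174) or avelumab replicate 1, 2 or 3 (0.0776, 0.103 and 0.0637), with a range of 0.00149 to 0.174, and without durvalumab replicate 1 the count was 2. Durvalumab gave ZNF83 24.0, 22.9 and 20.0 CPM, which did not overlap atezolizumab either, a log2 difference of 0.39 ± 0.074, yet with no gene of the table called in that pair the adjusted p was 0.223. In that pair edgeR called 0 of 222 members, against 0% of genes, and DESeq2 called 1. In edgeR 29 members had an unadjusted p under 0.05, as did 2251 of 18886 genes. Durvalumab against avelumab gave 0 of 222 in both tools, against 0.387%, and 1 was called without durvalumab replicate 1. In edgeR 7 members had an unadjusted p under 0.05, led by ZNF358 (uncertain, adjusted p = 0.339), as did 1757 of 18886 genes.

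In A498 parental, 1 of 165 members was called between avelumab and atezolizumab, against 3.39% of genes. It was ZNF114, with 19.6, 18.5 and 19.1 CPM under avelumab and 16.1, 16.0 and 16.3 under atezolizumab, a log2 difference of 0.23 ± 0.060 (adjusted p = 0.0259). It missed the threshold without atezolizumab replicate 1, 2 or 3 (0.0832, 0.0553 and 0.0789) or avelumab replicate 1 or 2 (0.0829 and 0.0718) and in DESeq2 (0.0506), with a range of 0.0161 to 0.0832. ZNF114 had a higher level in A498 parental, at 17.4 CPM there and 0.271 in 786-O parental. Between durvalumab and atezolizumab 1 of 165 was called, against 2.8%: ZNF358 (uncertain), with 30.0, 31.8 and 28.6 CPM against 26.6, 23.6 and 26.6, a log2 difference of 0.22 ± 0.055 (adjusted p = 0.0226). It missed the threshold without atezolizumab replicate 2 or 3 (0.123 and 0.0545) or durvalumab replicate 1 or 2 (0.118 and 0.122), with a range of 0.00352 to 0.123. Durvalumab against avelumab gave 0 of 165 in edgeR and DESeq2, against 0.0599%, and 1 was called without avelumab replicate 3 or durvalumab replicate 3. In edgeR 9 members had an unadjusted p under 0.05, led by ZNF579 (adjusted p = 0.155), as did 1264 of 18372 genes.

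In the libraries labelled A498 resistant, none of 219 members was called in any pair by edgeR or DESeq2. The shares of all genes called were 0% for avelumab against atezolizumab, 0.00571% for durvalumab against atezolizumab and 0.0171% for durvalumab against avelumab. In the same order, 9, 16 and 14 members had an unadjusted p under 0.05 in edgeR, as did 619, 1227 and 1539 of 17510 genes. The lowest p in each pair belonged to ZNF506 (adjusted p = 0.9996), ZNF586 (uncertain, adjusted p = 0.324) and ZNF808 (uncertain, adjusted p = 0.413). Without avelumab replicate 1, 1 member was called between durvalumab and avelumab. ZNF586 measured 3.92, 4.14 and 4.24 CPM under durvalumab and 5.61, 5.60 and 5.55 under atezolizumab.

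**Figure D5:**
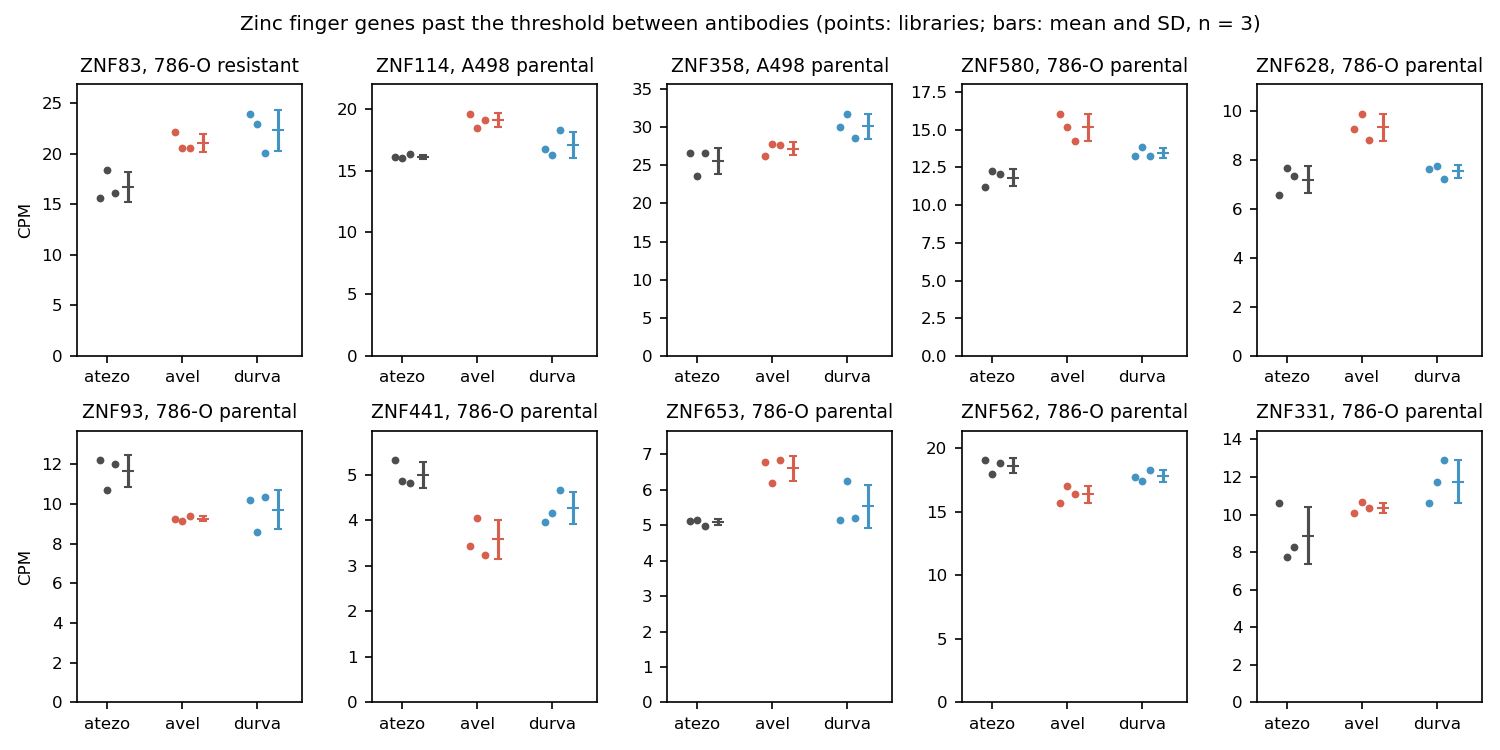
CPM in each library (points) with mean and SD (bars, n = 3) under atezolizumab, avelumab and durvalumab for the 10 called pairs of gene and state. The 2 groups of each called pair lie apart, as a call on these same libraries makes likely, with differences of 1.14-fold to 1.39-fold.

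A dependence of antibody differences on cell state was tested over all 36 libraries with 6 degrees of freedom. The libraries labelled A498 resistant were part of it, and no fit left all of them out together. Of 227 members tested, 8 were called by edgeR's quasi-likelihood test, against 4.1% of genes, and 11 by DESeq2. They were ZNF358 (adjusted p = 0.00701, uncertain), ZNF628 (0.0114), ZNF93 (0.0206), ZNF579 (0.0226), ZNF146 (0.0286, uncertain), ZNF865 (0.0419), ZNF43 (0.0491) and ZNF586 (0.0498, uncertain). Only ZNF358 kept the call in all alternatives, left-out libraries included (adjusted p at most 0.0188). Of the 36 fits that each left out 1 library, an alternative added after seeing the data, ZNF586 missed the threshold in 30 (range over all its alternatives 0.0309 to 0.152), ZNF43 in 25 (0.0201 to 0.145) and ZNF865 in 22 (0.000939 to 0.0926). ZNF146 missed it in 6, those without atezolizumab replicate 1 (0.106) or 3 (0.0665) of the libraries labelled A498 resistant, without atezolizumab replicate 1, 2 or 3 of 786-O resistant (0.0538, 0.0542 and 0.0546) or without atezolizumab replicate 3 of A498 parental (0.0597), and also without the filter on low counts (0.122, range 0.00937 to 0.122). ZNF93 missed it without atezolizumab replicate 3 of A498 parental (0.0578) or atezolizumab replicate 1 or 3 of 786-O parental (0.0547 and 0.0517, range 0.00164 to 0.0578). ZNF579 missed it without avelumab replicate 2 of A498 parental (0.05002) or of 786-O parental (0.0576, range 2.26e-07 to 0.0576), and ZNF628 without that 786-O parental library (0.0570, range 0.000801 to 0.0570). With DESeq2's size factors in edgeR, ZNF43 (0.0517) and ZNF586 (0.0505) missed it, and both also did with a block for replicate number (0.0779 and 0.0702). ZNF43 also missed it without TMM factors (0.0639), and ZNF586 in DESeq2 (0.0693) and without the filter (0.114). ZNF628, ZNF579 and ZNF865 are all genes of cluster 11. ZNF93 averaged 11.7, 9.26 and 9.72 CPM under atezolizumab, avelumab and durvalumab in 786-O parental and 15.8, 16.5 and 17.1 in 786-O resistant. ZNF43 averaged 6.62, 5.68 and 6.37 CPM in 786-O parental and 6.12, 7.86 and 6.95 in 786-O resistant. Of the 41 genes 0 were called in edgeR and 7 had an unadjusted p under 0.05 there, as did 4061 of 20752 genes. DESeq2 called 1 of the 41.

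The partners of these proteins were read from a list of 25 genes for the KRAB repression machinery and the chromatin it marks. TRIM28, the corepressor that KRAB domains bind, averaged 899 ± 18.7 CPM in A498 parental, 475 ± 17.2 in 786-O parental, 323 ± 12.7 in 786-O resistant and 332 ± 13.2 in the libraries labelled A498 resistant. A498 parental, the state with the most members off, thus had the highest TRIM28 level. SETDB1, its histone H3K9 methyltransferase, ran closer, at 43.8, 33.1, 35.2 and 38.8 CPM in the same order. Of the DNA methyltransferases, DNMT3B averaged 42.7, 12.05, 24.0 and 33.9 CPM and DNMT3A 11.6, 3.03, 6.23 and 7.79, while DNMT1 ran from 236 to 262 CPM over the states. CHD3, a remodeller of the NuRD complex that TRIM28 binds, averaged 293 CPM in A498 parental and 132 to 143 in the others. HDAC1 (92.7 against 189.6 CPM) and SUV39H1, another H3K9 methyltransferase (19.8 against 41.6), were lower in A498 parental than in 786-O parental. ZNF274, a member and also on this list, averaged 13.5 CPM in A498 parental and 7.79 in 786-O parental.

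Between the parental lines edgeR called 24 of the 25 genes, 13 higher and 11 lower in A498 parental, and between 786-O resistant and parental 21, 7 higher and 14 lower, beside the shares of all genes given above. The libraries labelled A498 resistant gave 23 against A498 parental, 10 higher and 13 lower, and 19 against 786-O resistant, 17 higher and 2 lower. Whether these levels bear on the members that were off was not tested. Between antibodies 1 of the 25 was called in the 12 pairs, EHMT2, an H3K9 methyltransferase, between avelumab and atezolizumab in 786-O parental, with a log2 difference of 0.18 ± 0.039 (adjusted p = 0.00746, edgeR). None of the 25 was called in the test of dependence on cell state.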

How the data were processed

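The values are raw counts, which the authors deposited as 1 table of genes by 36 libraries with no scaling. Per the submitters' processing notes, the tools included bcl2fastq 2.19.0, HISAT2 2.1.0, Trimmomatic 0.36.6 and featureCounts 1.6.3, and the build was GRCh38. Per the labels' protocols the kit was a stranded mRNA kit. Neither the annotation release nor the strand setting is given in the sources used here, so reads of overlapping genes may be shared. Members, positions and overlaps came from GENCODE 29 and promoter windows from RefSeq. CPM was computed over each library's raw total. Tests used edgeR 4.0.16 in R 4.3.3 on the whole table: filterByExpr (count minimum 10, total minimum 15), TMM, group means, robust quasi-likelihood, Benjamini-Hochberg adjustment, threshold 0.05. DESeq2 1.42.0, its size factors in edgeR, no filter, a replicate block, left-out libraries, other limits for on and off, and other cluster gaps were alternatives. The code was tested on simulated data. Ratios of pooled reads carry exact 95% intervals. A floor of 3 counts over the group was used only where the lower group had 0 reads, and gives a bound without an interval. Such a bound can lie below a ratio that rests on 1 to 3 reads. The members and lists were chosen with earlier results of these data known. Named genes were the 12 highest of the genes on in only 1 parental line, the 5 highest by mean CPM, the ends of clusters and runs, members called or of lowest p between antibodies, members next to the limits, ZNF69, ZFP28, ZNF415 and the partner list; others, such as ZNF91, ZFP36, ZNF541 and the genes with printed promoters, were named after their values were seen.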

Additional observations from a re-analysis of the deposited data

Results flagged for a closer look

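Of 79 named-gene levels over 9 libraries of a cell state, 4 had a library whose gap to the others exceeded Dixon's 95% critical value, and chance alone gives about 1 in 20. ZFP28 stood at 11.1 CPM in avelumab replicate 2 of the libraries labelled A498 resistant, where the others ran from 8.83 to 9.91. ZNF614 stood at 6.59 CPM in avelumab replicate 3 of 786-O resistant, where the others ran from 4.77 to 5.56. ZNF347 stood at 15.2 CPM in atezolizumab replicate 3 of 786-O parental, against 12.2 to 13.7 in the others, and ZNF700 (uncertain) at 11.3 in durvalumab replicate 3, against 8.84 to 9.93.

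Antibody differences that depended on the cell state, by the interaction test of edgeR over 36 libraries with Benjamini-Hochberg adjustment, were called for 8 members: ZNF358 (uncertain, adjusted p = 0.00701), ZNF628 (0.0114), ZNF93 (0.0206), ZNF579 (0.0226), ZNF146 (0.0286, uncertain), ZNF865 (0.0419), ZNF43 (0.0491) and ZNF586 (0.0498, uncertain). These 8 were 3.52% of the 227 members tested, against 4.1% of all genes tested. All but ZNF358 missed the threshold when at least 1 of the 36 libraries was left out. ZNF358 averaged 25.6, 27.2 and 30.1 CPM under atezolizumab, avelumab and durvalumab in A498 parental and 45.9, 45.2 and 39.9 in 786-O resistant. ZNF579 averaged 38.9, 34.4 and 41.1 CPM in A498 parental and 9.33, 11.1 and 9.88 in 786-O parental.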

How the results depend on the processing

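Calls of on and off moved little when the 3 libraries of 1 replicate number were left out of each state: 144 to 146 members were on in A498 parental and 203 to 205 in 786-O parental, and 41 to 42 were on in 786-O parental and off in A498 parental. Per kilobase of exon, 69, 135, 111 and 101 members were on in A498 parental, the libraries labelled A498 resistant, 786-O resistant and 786-O parental, 32 and 36 were off in the middle 2 states, 18 were on in 786-O parental and off in A498 parental, and 0 were on in A498 parental and off in the libraries labelled A498 resistant. With on at 0.5 and off under 0.05 CPM, 2 members were on in A498 parental and off in 786-O parental. With on at 2 CPM, 0 members were on in A498 parental and off in 786-O parental, and 0 were on there and off in the libraries labelled A498 resistant. Among members not marked uncertain, a choice made after seeing the data, 11 were off in 786-O resistant and 11 in the libraries labelled A498 resistant.

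Without the filter on low counts, the members called between antibodies numbered 1 for durvalumab against avelumab in the libraries labelled A498 resistant, 3 for avelumab and 4 for durvalumab against atezolizumab in 786-O resistant, 2 for avelumab against atezolizumab and 1 for durvalumab against avelumab in A498 parental, and 3 for durvalumab against each of the others in 786-O parental. That setting also gave 13 for the interaction and 24 for 786-O resistant minus parental at 2-fold or more. DESeq2 gave 1 for durvalumab against atezolizumab in 786-O resistant and 0 for avelumab against atezolizumab in A498 parental, where library totals without TMM factors, added after seeing the data, gave 2. When 1 library was left out, the counts ran from 0 to 1 for durvalumab against avelumab in the libraries labelled A498 resistant and from 0 to 2 and 0 to 1 for avelumab against atezolizumab and durvalumab against avelumab in 786-O resistant. They ran from 0 to 1 for each pair in A498 parental, and from 3 to 7, 0 to 6 and 0 to 1 in 786-O parental. For the interaction, where leaving out libraries was added after seeing the data, they ran from 3 without atezolizumab replicate 3 of A498 parental to 12 without durvalumab replicate 1 of 786-O resistant. Without TMM factors ZNF101 (0.11), ZNF562 (uncertain, 0.00811) and ZNF83 (0.0258) turned higher on the log2 scale in 786-O resistant minus parental. The cause of these changes was not tested.

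No joint deviation of same-numbered libraries was seen: over 36 pairs the correlation ran from -0.14 to 0.19, and 2 exceeded 0.1. Pairs of other numbers ran from -0.21 to 0.18 in the libraries labelled A498 resistant. Whether the numbers stand for a pairing cannot be told from these values. With the replicate block, 1 member was called for durvalumab against atezolizumab in 786-O resistant, against 0 for that pair in 786-O parental, where ZNF331 had an adjusted p of 0.112 (range 0.000311 to 0.182 over its alternatives), and the interaction gave 6 members, with ZNF43 (0.0779) and ZNF586 (uncertain, 0.0702) lost. ZNF653 and ZNF562, both uncertain, also missed the threshold with the block, at 0.0676 and 0.0851. Low counts limited the tests between antibodies most in A498 parental, where 165 of 250 members passed the filter.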
